A study of Ginkgo biloba with 16 samples.

Results

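Cambium RNA from the oldest *Ginkgo biloba* trees was set against cambium RNA from the intermediate age group. VC600 comprised female trees of 538, 553 and 667 y, VC200 female trees of 193, 211 and 236 y, and VC20 female trees of 15, 20 and 22 y, with 1 library for each tree (trees A, B and C of a group). VC stands for vascular cambium, which the study cut by tangential cryosectioning of wood and bark blocks taken from the trunk at breast height. No treatment is described for any tree. The VC20 ages are ring counts. For old trunks too thick for a full core, the study estimated age from diameter and mean ring width. The ages of all 6 VC200 and VC600 trees may thus be estimates. The trees were sampled in late spring of consecutive years, and the sources used here do not say which tree was sampled in which year, so year and age group cannot be told apart. The comparison took all genes with at least 1 FPKM (fragments counted for a gene, scaled by transcript length and library size) in at least 3 of the 9 RNA-seq libraries. These were 21,924 of the 43,911 genes of the table. The comparison itself set 6 of the 9 RNA-seq libraries against each other, in a series of 16 samples. The VC20 libraries served to place each difference relative to young trees. They also entered the fit, in which all age groups shared a common estimate of spread. Fragment totals implied by the FPKM values were 15,732,412 to 17,583,939 in VC600, 16,214,432 to 18,811,771 in VC200 and 16,220,435 to 18,374,443 in VC20.

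The vascular cambium is the lateral meristem of the stem, whose divisions give wood (secondary xylem) inward and phloem outward. Newly formed xylem cells expand, lay down a secondary wall of cellulose and hemicellulose, and impregnate it with lignin, a polymer of monolignols that are oxidized in the wall by laccases and peroxidases. A cambium sample therefore reports on dividing cells and on the first stages of wood and phloem formation together. In such bulk samples, fewer cells of a type and less RNA per cell cannot be told apart.

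One library stood apart before any comparison was made. Spearman correlations of VC200C with the other 8 libraries were 0.921 to 0.933 over all genes, and the other 8 correlated with each other at 0.956 to 0.975. Its weight in limma, which falls as a library departs from its group, was 0.176, against 0.516 to 4.19 in the other 8. The cambium markers, 5 HD-ZIP III genes (homeobox regulators of vascular cell identity) and 2 WOX4 genes (maintenance of cambial stem cells in *Arabidopsis*), all passed the filter. Their summed level was 97.2 to 200.1 FPKM in VC600, 27.6 to 161 FPKM in VC200 and 113 to 220 FPKM in VC20. VC200C gave the lowest sum, and the WOX4 gene Gb_12565 was listed at 0 there. Of 4 chlorophyll-binding and photosystem genes, markers of green bark, 2 passed the filter, and the list summed to 32.2 to 58.5 FPKM in VC600 and 38.9 to 48.3 FPKM in VC200. The part of these marker levels in the results was not tested, and list medians and counts are given with all libraries and without VC200C.

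A single gene passed the test in VC600 vs. VC200. In limma (1 fit of log2[FPKM + 1] over the 9 libraries, Benjamini-Hochberg adjustment over all tested genes, adjusted p under 0.05 and an absolute log2 fold change ≥ 1), 1 of 21,924 genes was called, or 0.00456%. An unadjusted p under 0.05 was reached by 2,228 genes (10.2%), of which 1,749 were higher in VC600 (7.98% of tested genes) and 479 lower (2.18%). The higher share of 78.5% depended on scaling, since over all tested genes the log2 fold change had a median of 0.11 with FPKM as deposited and 0.01 after quantile normalization. After that scaling 1,176 genes were higher (5.36%) and 954 lower (4.35%), a higher share of 55.2%, and in edgeR, which scales by TMM, 1,079 genes were higher and 1,167 lower at that level. The log2 fold changes below carry this shift of about 0.1. The number of calls depended on the tool as well. On fragments recovered from the FPKM values, edgeR called 1 gene (0.0047%) and DESeq2 323 (1.52%), whereas limma with library weights called 383 (1.75%). Leaving out VC200C raised the limma count to 16 genes (0.073%), and 1,085 genes then had an unadjusted p under 0.05 and an absolute log2 fold change ≥ 1, against 725 with all libraries.

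**Figure D1:**
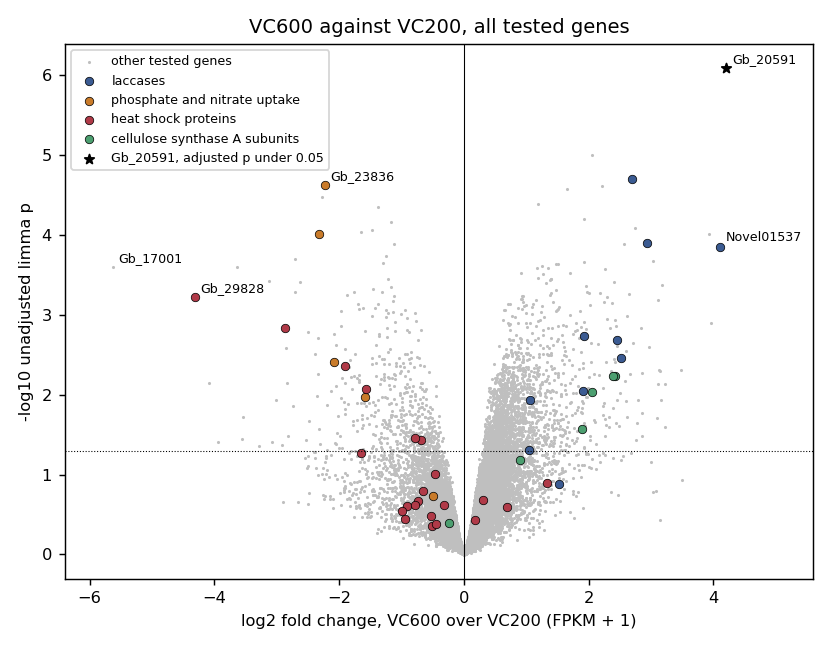
Log2 fold change of FPKM + 1 (VC600 over VC200, x axis) against the unadjusted limma p (−log10, y axis) for the 21,924 tested genes, with 4 gene lists in color; the dotted line marks an unadjusted p of 0.05. Gb_20591 (star) was the gene with an adjusted p under 0.05, laccases lie on the right and phosphate and nitrate genes on the left.

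The gene that passed was Gb_20591, which the annotation used here does not name (scaffold3274 of the study's genome assembly, 2,377,270 to 2,378,460, plus strand). It had 13.2, 27.9 and 15.1 FPKM in the VC600 trees, against 0, 0.0466 and 0 FPKM in the VC200 trees. The 3 VC600 trees lay far above the 3 VC200 trees, in which 1 fragment was seen in all. Gb_20591 rose in VC600 by a log2 fold change of 4.21 (SE 0.34, adjusted p = 0.018). Because VC200 was near 0, this fold change depends on the added 1 FPKM and is no bound. Pooled over trees, the recovered fragments were 1,100 in VC600 and 1 in VC200, a ratio of 1,165 with an exact 95% interval of 209 to 46,038 that covers counting error only. VC20 trees had 17.2, 11.8 and 7.25 FPKM, so the gene stood at a like level in young and oldest trees, with a VC600 vs. VC20 log2 difference of 0.59 and a 95% interval of −0.19 to 1.37. The call was kept without VC200C (adjusted p = 0.0366) and lost when VC200A, VC200B, VC600A, VC600B or VC600C was left out, with adjusted p values of 0.0512 to 0.166.

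The next gene on the same scaffold, 168,612 bases away, showed a like profile. Gb_20590 encodes a cytochrome b561 and DOMON domain protein, a family of membrane proteins that pass electrons from ascorbate. It had 6.91, 12.6 and 6.56 FPKM in VC600, against 0.433, 0.815 and 0.0503 FPKM in VC200. The groups did not overlap, and the log2 fold change of 2.74 (SE 0.40) did not pass adjustment (adjusted p = 0.135). VC20 trees had 10.3, 18.8 and 6.38 FPKM, on both sides of the VC600 mean of 8.68 ± 3.38 FPKM (SD, n = 3). The study itself reports lower RNA of Gb_20590 in both old groups than in VC20. By qRT-PCR over more tree ages it also reports a low level in old trees.

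Genes with separated groups were then taken in order of p. In 379 genes (1.73% of those tested) all VC600 trees lay above all VC200 trees with an absolute log2 fold change ≥ 1, and in 206 (0.94%) they lay below. Without the minimum fold change these were 2,441 (11.1%) and 698 (3.18%). The 15 of smallest p in each direction are described here, and apart from Gb_20591 none passed adjustment, with adjusted p values of 0.096 to 0.194. Annotation was at hand for 8.26% of tested genes, because function was taken from the study's supplementary lists, which mostly hold genes that it had selected on these samples. Of the 725 genes above, 40.8% carry an annotation for this reason.

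Among the 15 higher genes, Gb_01664 (no annotation) had 8.65, 4.95 and 5.36 FPKM in VC600, against 0.920, 0.571 and 0.701 FPKM in VC200. All 3 VC200 trees were under 1 FPKM, and VC20 trees were higher than either old group at 13.4, 15.7 and 12.8 FPKM. The log2 fold change was 2.05 (SE 0.23, adjusted p = 0.096), and 2.041 without VC200C, where the gene was called (adjusted p = 0.0462). Its VC600 level remained below VC20 by 1.06 on the log2 scale (95% interval −1.58 to −0.55). Gb_09327 (no annotation) had 35.4, 26.3 and 32.1 FPKM in VC600, against 9.63, 11.8 and 6.88 FPKM in VC200, and it too was called without VC200C (adjusted p = 0.0462). Here VC600 reached the VC20 range of 33.1 to 38.9 FPKM, with a log2 difference of −0.24 (−0.71 to 0.23).

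Apyrases hydrolyze nucleoside tri- and diphosphates, ATP in the wall space among them. The apyrase gene Gb_10760, the most abundant of the 15, had 316, 253 and 294 FPKM in VC600, against 78.7, 49.3 and 107 FPKM in VC200. The lowest VC600 tree was above the highest VC200 tree by more than the range within either group, and VC20 trees spanned 244 to 467 FPKM. Gb_13977 is annotated as YLS9, named in *Arabidopsis* for expression in yellowing leaves. It averaged 27.8 ± 5.05 FPKM in VC600 and 6.56 ± 1.14 FPKM in VC200 (SD, n = 3 each), below the VC20 mean of 46.3 ± 15.2 FPKM. Mannan endo-1,4-beta-mannosidase cuts mannans, the main hemicelluloses of gymnosperm wood. Its gene Gb_30579 had 15.1, 4.78 and 16.1 FPKM in VC600, against 0.187, 1.29 and 0.0867 FPKM in VC200, and 11.5 to 26.3 FPKM in VC20. Unannotated Gb_10187, Gb_16430 and Gb_15860 and 3 laccases had the same shape, with a VC200 mean below both the VC600 and the VC20 mean.

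Gb_32944 and Novel00883 were higher in VC600 than in VC20 trees as well. BURP domain proteins are plant proteins of the wall space that share their domain with the non-catalytic subunit of polygalacturonase. The BURP gene Gb_32944 (scaffold630, 262,930 to 263,296) had 21.4, 37.4 and 43.5 FPKM in VC600, against 5.21, 7.42 and 6.22 FPKM in VC200. VC20 trees, at 8.60, 6.08 and 8.40 FPKM, were close to VC200, and VC600 exceeded them by 1.97 on the log2 scale (1.34 to 2.60). The adjoining gene Gb_32945, which lies 310 bases away and is annotated as such a non-catalytic subunit, had 11.9, 13.9 and 16.2 FPKM in VC600, against 0.759, 1.90 and 4.93 FPKM in VC200 and 4.21 to 5.05 FPKM in VC20. Novel00883, a hypothetical protein, had 1.28, 1.01 and 1.59 FPKM in VC600 and was listed at 0 in all 3 VC200 and all 3 VC20 trees. Against a floor of 3 fragments over the VC200 group, its level was at least 27.5-fold higher in VC600. It passed the filter through the VC600 trees alone, so it had to differ. Of the 21,924 tested genes, VC600 trees lay above all 6 other trees in 38 and below them in 51. These counts require a log2 difference of at least 1 from VC200.

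Among the 15 lower genes, several act in nitrogen, phosphorus and carbon metabolism. Nitrate reductase reduces nitrate to nitrite, the first step of nitrate assimilation. Its gene Gb_23836 (scaffold3989, 1,802,712 to 1,805,860) had 1.732, 2.103 and 2.420 FPKM in VC600, against 17.41, 13.5 and 10.1 FPKM in VC200. The log2 fold change was −2.23 (SE 0.28, adjusted p = 0.096), with −2.41 and a call (adjusted p = 0.0421) without VC200C. VC20 trees had 2.66, 5.61 and 4.31 FPKM, and VC600 was below them by 0.72 on the log2 scale (−1.34 to −0.09). It overlaps a second nitrate reductase gene on the opposite strand, Gb_23840, so reads from the 2 genes can be told apart only if strand was used in counting, which is not stated in the sources used here. Gb_20888 is a homolog of *Arabidopsis* PHO1-H1, a phosphate exporter that loads phosphate into xylem vessels. It had 7.04, 9.24 and 13.1 FPKM in VC600, against 76.8, 41.6 and 42.5 FPKM in VC200 and 2.46 to 5.94 FPKM in VC20, so VC600 was far below VC200 and still above VC20 by 1.04 (0.26 to 1.83).

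GDPD1, a phosphodiesterase that in *Arabidopsis* releases glycerol 3-phosphate from phospholipid breakdown products under phosphate shortage, is encoded by Gb_23497. It had 3.36, 6.76 and 0.842 FPKM in VC600, against 64.8, 19.4 and 87.3 FPKM in VC200. VC20 trees had 3.35 to 4.25 FPKM, inside the VC600 range. Plastidial pyruvate kinase (Gb_41055), a glycolytic enzyme, averaged 7.28 ± 1.495 FPKM in VC600 and 18.4 ± 1.74 FPKM in VC200, with 8.98 ± 1.75 FPKM in VC20 (SD, n = 3 each). The blue copper protein gene Novel01909 was listed at 0 in all VC600 and all VC20 trees and had 1.21, 2.29 and 1.40 FPKM in VC200, at least 19.2-fold lower in VC600 against the floor of 3 fragments. It passed the filter through the VC200 trees alone, as did Gb_31949, Gb_25082, Gb_09541 and, among the list genes, Gb_16132, so these had to differ.

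The widest gap among the lower genes was in Gb_17001, a jacalin-related lectin, a carbohydrate-binding protein. It had 3.38, 0.895 and 0.793 FPKM in VC600, against 421, 157 and 26.3 FPKM in VC200. VC20 trees had 39.6, 127 and 199 FPKM, so this gene was low in VC600 alone, by −5.63 against VC200 (SE 0.96, adjusted p = 0.179, and 0.0366 without VC200C) and by −5.36 against VC20 (−7.54 to −3.19). Gb_27609, a homolog of the vacuolar flavonoid transporter TRANSPARENT TESTA 12, was also lowest in VC600, at 0.717 ± 0.227 FPKM, with 3.23 ± 0.429 FPKM in VC200 and 1.64 ± 0.5995 FPKM in VC20. Glutathione S-transferase U18 (Gb_37863, a detoxification enzyme), the TMV resistance protein N homolog Gb_04247, the sugar phosphate translocator homolog Gb_31949 and the STERILE APETALA homolog Gb_09541 were higher in VC200 than in both other groups by their means. Unannotated Gb_25238, Novel00438, Gb_15154 and Gb_25082 did the same.

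**Figure D2:**
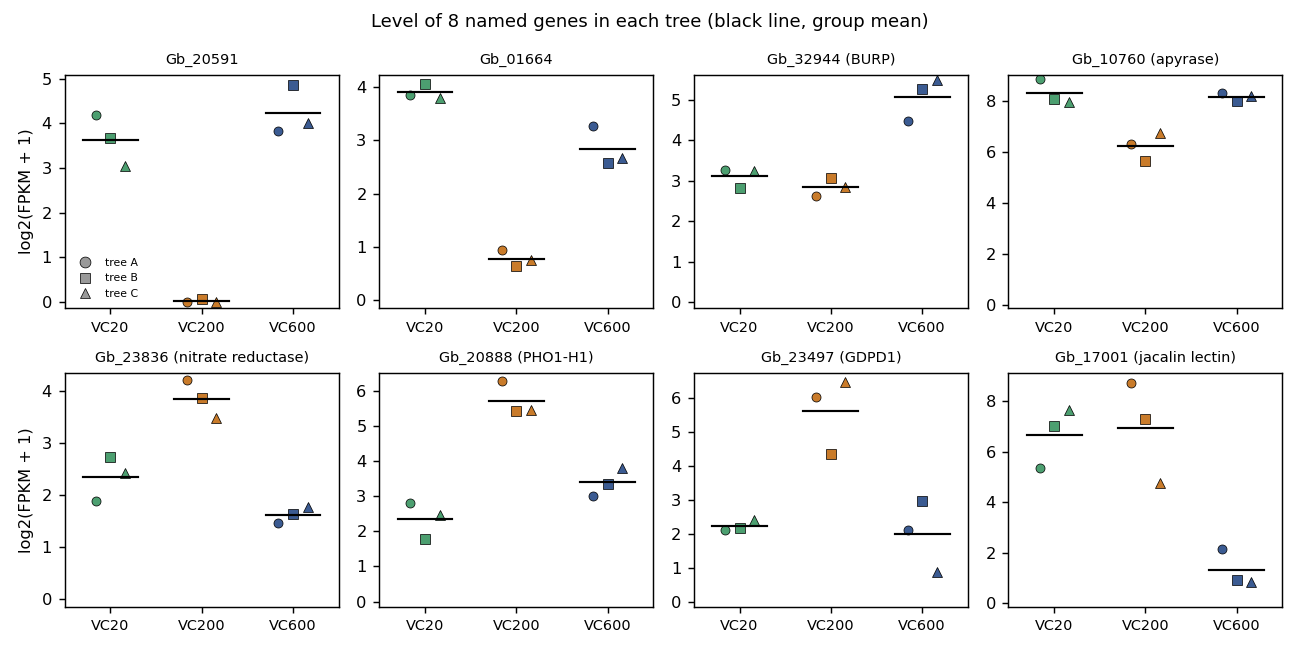
Level of 8 of the genes of smallest p in each tree (y axis, log2[FPKM + 1]; x axis, age group in order of age; circle, square and triangle are trees A, B and C; line, group mean). The 3 VC600 trees do not overlap the 3 VC200 trees in any panel, and Gb_32944 and Gb_17001 are the panels in which VC20 sits beside VC200.

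Without VC200C, 16 genes were called, 10 higher and 6 lower. Gb_20591, Gb_01664, Gb_09327, Gb_17001, Gb_23836 and Gb_32945 have been described. In the other 10 genes VC200C was nearer VC600 than were VC200A and VC200B. Gb_33065 encodes an AT-hook DNA-binding protein. It had 1.99, 1.55 and 1.16 FPKM in VC600, against 13.6, 10.02 and 4.15 FPKM in VC200, and 1.44 to 2.02 FPKM in VC20. Gb_38402 is a homolog of ABCG14, which exports cytokinin to the shoot in *Arabidopsis*. It had 3.81, 9.91 and 10.2 FPKM in VC600, against 78.2, 52.1 and 2.81 FPKM in VC200, so VC200C alone was below all VC600 trees. The HSP70 gene Gb_10326 had 11.6, 11.3 and 7.71 FPKM in VC600 and 60.9, 39.3 and 13.3 FPKM in VC200. Gb_27269, a TPR and ankyrin repeat protein, had 4.09, 7.26 and 7.89 FPKM in VC600 and 0.286, 0.336 and 5.06 FPKM in VC200, and VC20 trees had at most 0.461 FPKM. The unannotated Gb_01383, Gb_05156, Gb_21687, Gb_24977, Gb_31961 and Novel00298 completed the 16.

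Laccases, the copper oxidases of lignin polymerization, had the largest median of 20 gene lists. The list held 14 genes, of which 10 passed the filter, and 0 of 10 passed the adjusted limma test, as did 0 members of the other 19 lists. All 10 had a higher mean in VC600 than in VC200, 9 had an unadjusted p under 0.05 and 8 had groups that did not overlap. Of all tested genes, 63.5% had a higher mean, 7.98% were higher at that level and 11.1% were separated upward. The median log2 fold change of the laccases was 2.18, with a range of 1.05 to 4.11, against 0.11 for all tested genes. Without VC200C the median was 1.99 and 8 genes had an unadjusted p under 0.05 (9.38% of tested genes were higher at that level). By DESeq2, 8 of the 9 laccases it tested were called, against 1.52% of all genes it tested. Of the 14, 7 came from the study's own list of genes that differ between VC200 and VC600 and 12 from its lists of differing genes in any comparison, so the direction of the list is not independent of these samples. Summed over the list, laccase RNA was 73.3, 80.4 and 58.8 FPKM in VC600 trees A, B and C, against 4.41, 4.21 and 0.09996 FPKM in VC200 trees A, B and C and 102, 158 and 45.9 FPKM in the VC20 trees. No VC200 tree approached the other 2 groups.

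The highest VC600 level was in Novel01537, with 22.97, 8.67 and 26.9 FPKM in VC600, against 0, 0.259 and 0 FPKM in VC200 and 6.88, 40.6 and 7.45 FPKM in VC20. Its log2 fold change was 4.11 (SE 0.64, adjusted p = 0.154). Novel00066 had 8.61, 3.09 and 11.7 FPKM in VC600, against 0, 0.0710 and 0.0394 FPKM in VC200. Novel01534 had 4.27, 1.49 and 3.34 FPKM in VC600, against 0.0259, 0 and 0.0301 FPKM in VC200. In these 3 genes VC600B was the lowest VC600 tree and VC20B the highest VC20 tree.

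A second set had the opposite order of trees. Gb_11065, a homolog of *Arabidopsis* LAC11, had 6.56, 18.5 and 4.76 FPKM in VC600, against 1.22, 1.36 and 0 FPKM in VC200. Novel01787 had 7.73, 21.8 and 3.63 FPKM in VC600, against 1.03, 1.32 and 0.0305 FPKM in VC200. Novel01091 had 3.93, 14.8 and 0 FPKM in VC600 and 0.786, 0.849 and 0 FPKM in VC200, so its groups overlapped. VC600B was the highest VC600 tree in all 3 of these genes, and VC600C and VC200C the lowest of their groups. Laccases form a multigene family, and reads shared between near-identical copies could have been split in counting, so the values of single copies are less certain than the sum.

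The other 4 tested laccases are given here. Novel01705 had 7.19, 6.17 and 5.41 FPKM in VC600, against 0.0974, 0.280 and 0 FPKM in VC200, with the smallest p of the list (adjusted p = 0.096). Gb_00462, a homolog of LAC17, had 7.001, 2.32 and 1.01 FPKM in VC600 and was listed at 0 in all VC200 trees, at least 111-fold higher in VC600 against a floor of 3 fragments. Both LAC11 and LAC17 take part in lignification of *Arabidopsis* stems. Novel00995 was likewise at 0 in all VC200 trees and had 0.467 to 1.91 FPKM in VC600, and Novel00759 had 0 to 2.76 FPKM in VC600 and 0 to 0.0428 FPKM in VC200. Gb_14613, Gb_14614, Gb_34469 and Novel00229 did not pass the filter, and in none of these 4 did a tree of either old group exceed 1.26 FPKM. All 10 tested laccases had a VC20 mean nearer VC600 than VC200, and the 95% interval of the VC600 vs. VC20 difference included 0 in each of them, for example −1.05 to 1.87 in Novel01537 and −2.24 to 0.37 in Gb_00462.

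**Figure D3:**
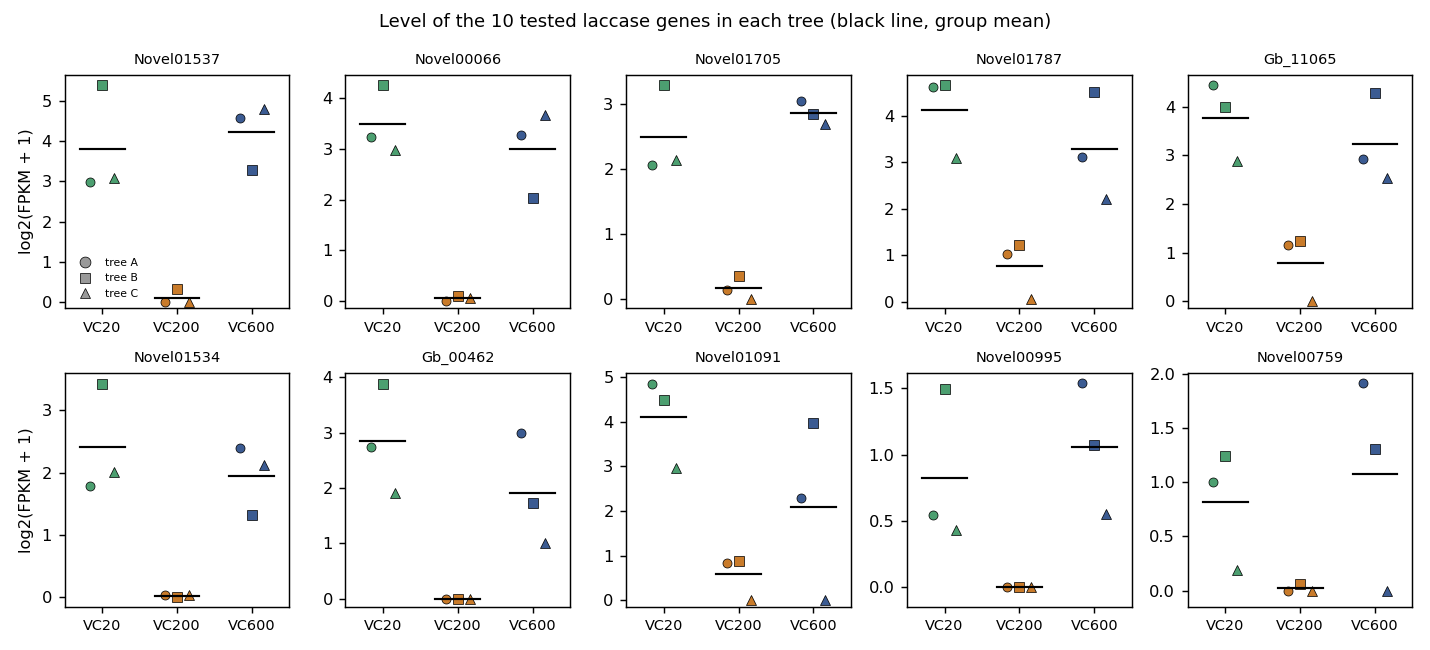
Level of the 10 tested laccase genes in each tree (y axis, log2[FPKM + 1]; x axis, age group in order of age; circle, square and triangle are trees A, B and C; line, group mean). VC200 trees sit at or near 0 in most panels and below both other groups by their means in all 10.

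MicroRNAs miR397 and miR408 target laccase and other copper protein transcripts in plants, and they were counted in trees A and B. The entry pab-miR397 had 12.8 and 13.5 CPM (counts scaled to library size) in VC600, against 75.2 and 55.4 in VC200, and 1,711 and 1,013 in VC20. Both old groups were thus far below VC20 for this miRNA, and VC600 was the lowest. The entry ath-miR408-3p had 2.44 and 7.11 CPM in VC600 and 8.45 and 3.80 in VC200, which overlap. With 2 trees in a group no test was made.

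Other wall genes had medians of the same sign. Cellulose synthase A subunits build cellulose, and 6 of 9 passed the filter, with a median log2 fold change of 1.97, 4 genes higher at an unadjusted p under 0.05 and 0 lower. At that level 7.98% of all tested genes were higher and 2.18% lower. Gb_17419, a homolog of rice CESA9, had 13.4, 18.3 and 4.16 FPKM in VC600, against 1.19, 3.05 and 0.0590 FPKM in VC200. Gb_31853, a second CESA9 homolog that overlaps a gene on the other strand, had 10.6, 20.3 and 5.27 FPKM in VC600, against 1.48, 3.09 and 0.0501 FPKM in VC200. In both genes VC200C was the lowest of the 9 trees. VC20 means were 21.4 and 23.7 FPKM in these genes, and the 95% interval of the VC600 vs. VC20 difference included 0 in both. Without VC200C the list median was 1.60, and no subunit was called by DESeq2.

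Xyloglucan endotransglucosylases and expansins loosen walls during expansion. Of 10 tested genes, all had a higher mean in VC600, with a median of 1.31 and 5 genes at an unadjusted p under 0.05. The groups overlapped in 9 of the 10, and without VC200C the median was 0.87 with 3 genes at that level. Among all tested genes 63.5% had a higher mean, and 7.98% were higher at that level, or 9.38% without VC200C. The expansin-like gene Gb_10705 had 18.7, 4.75 and 33.9 FPKM in VC600 and 1.29, 6.51 and 0.249 FPKM in VC200. The expansin gene Gb_19528 had 4.90, 0.137 and 7.28 FPKM in VC600 and 0.917, 0.1995 and 0 FPKM in VC200. In both genes VC600B lay among the VC200 trees.

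Of 17 tested pectin enzymes, 8 were higher at an unadjusted p under 0.05 and 0 lower, with a median of 0.71 that was 0.32 without VC200C. Gb_32942, another non-catalytic subunit of polygalacturonase, had 50.8, 77.1 and 79.8 FPKM in VC600, against 17.84, 23.2 and 6.82 FPKM in VC200. At the low end of this list the pectinesterase genes Gb_28387 and Gb_02210 had log2 fold changes of −0.81 and −0.68 with overlapping groups. Of 11 tested mannan and xylan enzymes, 7 were higher and 0 lower at that level, and the groups were separated in 8 (7.98%, 2.18% and 11.1% of all tested genes were higher, lower and separated upward), with a median of 0.94 that was 0.89 without VC200C. The beta-xylosidase gene Gb_32463 had 10.98, 3.599 and 10.47 FPKM in VC600, against 0.308, 0.751 and 1.31 FPKM in VC200. Class III peroxidases, which can also oxidize monolignols, had 3 higher and 0 lower genes among 11 tested, with a median of 0.99 and single genes from −1.54 to 1.74. Novel00787 had 34.9, 24.8 and 0.725 FPKM in VC600 and 3.38, 7.27 and 0.173 FPKM in VC200, while among the old trees Novel00039 and Gb_23683 exceeded 1 FPKM in VC200C only, at 12.6 and 5.05 FPKM. Without VC200C the peroxidase median was 0.73, and the log2 fold changes were 0.96 in Novel00787, −0.51 in Novel00039 and −0.056 in Gb_23683. Most members of these lists came from the study's lists of differing genes in any comparison, 8 of 9 cellulose synthase, 18 of 21 pectin, 10 of 17 mannan and xylan and 11 of 15 peroxidase genes among them, so their directions are not independent of these samples.

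Monolignol synthesis genes did not move as 1 block. Of 15 tested genes, in a list with 15 of 16 members from the study's lists, 7 were higher and 3 lower at an unadjusted p under 0.05, and the groups were separated in 9 upward and 2 downward, with a median of 0.72. Over all tested genes 7.98% were higher, 2.18% lower, 11.1% separated upward and 3.18% downward. Without VC200C 4 were higher and 3 lower, with a median of 0.64, where all tested genes had 9.38% higher and 6.76% lower. Hydroxycinnamoyltransferase directs the pathway to guaiacyl units, and its gene Gb_38003 had 10.1, 14.1 and 13.5 FPKM in VC600, against 3.62, 5.24 and 0.596 FPKM in VC200. The methyltransferase gene Gb_25896 had 67.5, 29.4 and 120 FPKM in VC600 and 25.9, 15.7 and 4.51 FPKM in VC200. Cinnamoyl-CoA reductase commits hydroxycinnamoyl-CoA esters to monolignols, and both named copies had a lower mean in VC600. Gb_05658, which overlaps a gene on the other strand, had 32.2, 40.1 and 89.4 FPKM in VC600, against 190, 107 and 231 FPKM in VC200. Gb_17592 had 49.2, 39.2 and 40.7 FPKM in VC600, against 107, 88.5 and 63.2 FPKM in VC200, with VC20 lower still at 15.99 to 27.9 FPKM. Neither copy passed adjustment (adjusted p = 0.317 and 0.312). Of 10 tested flavonoid and lignan genes, 4 were higher and 1 lower at an unadjusted p under 0.05, and 3 and 1 without VC200C, with medians of 0.72 and 0.59. Chalcone synthase (Gb_01519), the entry enzyme of flavonoid synthesis, averaged 54.8 ± 21.3 FPKM in VC600 and 23.2 ± 10.1 FPKM in VC200, and the pinoresinol-lariciresinol reductase gene Novel00244 averaged 2.28 ± 1.49 FPKM in VC600 and 0.190 ± 0.272 FPKM in VC200 (SD, n = 3 each). Dirigent protein 16 (Gb_16132) had 0.105 to 0.984 FPKM in VC600, against 1.58 to 4.48 FPKM in VC200.

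**Figure D4:**
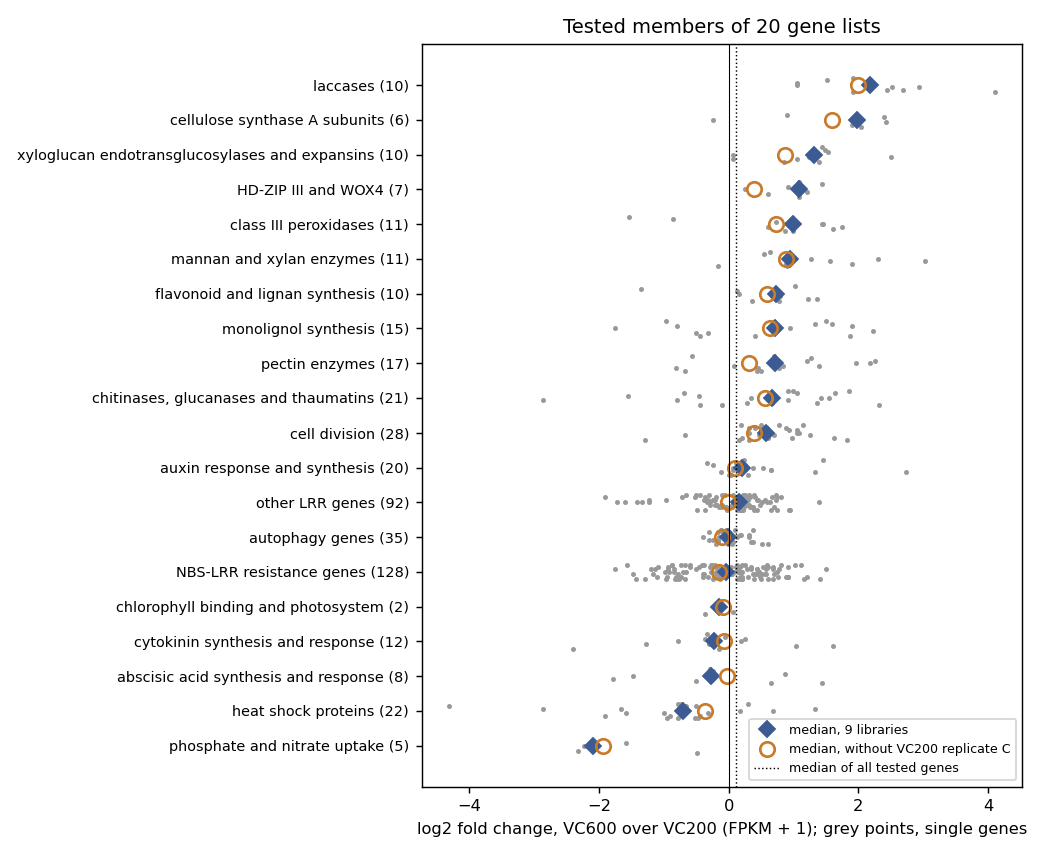
Log2 fold change of FPKM + 1 (VC600 over VC200, x axis) for the tested members of 20 gene lists (y axis, number tested in parentheses), with the list median over 9 libraries (diamond) and without VC200 replicate C (open circle); the dotted line is the median of all tested genes, 0.11. Laccases lie at the top with a median of 2.18 and phosphate and nitrate genes at the bottom with −2.09.

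Cell division genes (cyclins, kinases, tubulins, histones and motor proteins) mostly had a higher mean in VC600. Of 28 tested, in a list with 22 of 31 members from the study's lists, 26 had a higher mean, 11 had an unadjusted p under 0.05 and were higher, 0 were lower at that level, and the median was 0.57. Over all tested genes 63.5% had a higher mean, 7.98% were higher and 2.18% lower at that level. Without VC200C these were 8 higher and 2 lower, with a median of 0.39. All tested genes then had 9.38% higher and 6.76% lower. EB1C, a protein of growing microtubule ends, is encoded by Gb_11921, which had 2.91, 4.27 and 0.694 FPKM in VC600, against 0.143, 0 and 0.0553 FPKM in VC200. Cyclin-U2-2 (Gb_11201) had 14.2, 12.6 and 0.728 FPKM in VC600, against 1.02, 0.485 and 1.72 FPKM in VC200 and 24.2 to 32.6 FPKM in VC20. For this gene VC600C lay among the VC200 trees, and VC600 was below VC20 by 2.06 (−3.72 to −0.41). Actin-7 (Gb_01254, overlapping another gene) and cyclin-U2-1 (Gb_27032) had log2 fold changes of −1.29 and −0.68 with overlapping groups.

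The cambium markers themselves had a median of 1.08, which was 0.38 without VC200C. At an unadjusted p under 0.05, 2 of 7 were higher, against 7.98% of all tested genes. The WOX4 gene Gb_12565 had 5.71, 1.69 and 5.98 FPKM in VC600 and 1.01, 2.16 and 0 FPKM in VC200, and the HD-ZIP III gene Gb_22761 (overlapping another gene) 19.7, 15.3 and 35.4 FPKM in VC600 and 9.37, 29.1 and 2.15 FPKM in VC200. The groups overlapped in all 7 markers. VC200C was the lowest VC200 tree in every one and lay below the VC600 range in all 7. VC200B lay inside the VC600 range in every marker except Gb_10259, where it lay above that range. VC200A lay inside the range in Gb_10259 and Gb_05339 and below it in the others. The log2 fold change of Gb_22761 was 1.21, and 0.38 without VC200C.

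Hormone genes showed small medians. Of 20 tested auxin genes, 3 were higher and 0 lower at an unadjusted p under 0.05, against 7.98% and 2.18% of all tested genes. Their median was 0.21, and 0.09 both without VC200C and after quantile normalization. The highest fold change was in Gb_20590, which the list includes, followed by the auxin-induced 5NG4 homolog Gb_29218 with 1.01, 1.12 and 6.81 FPKM in VC600, against 0, 0.523 and 0.0726 FPKM in VC200. The abscisic acid list took 7 of its 9 members from the study's lists of differing genes. Of 8 tested abscisic acid genes, 2 were higher and 3 lower (median −0.27), and 1 and 2 without VC200C (median −0.03). Without VC200C, 9.38% of all tested genes were higher at that level and 6.76% lower. NCED1 catalyzes the rate-limiting cleavage step of abscisic acid synthesis. Its gene Gb_19071 had 69.98, 11.99 and 8.998 FPKM in VC600 and 58.3, 69.8 and 87.5 FPKM in VC200, so VC600A alone lay in the VC200 range, and VC20 trees had 3.85 to 6.39 FPKM. CAR2 (Gb_24240, overlapping another gene), a membrane-binding partner of abscisic acid receptors, had 108, 154 and 125 FPKM in VC600, against 574, 366 and 212 FPKM in VC200, while the receptor PYL8 (Gb_26331) and the ripening protein ASR1 (Gb_01481) averaged 4.85 ± 2.54 and 19.4 ± 12.9 FPKM in VC600, against 2.09 ± 0.676 and 5.45 ± 2.88 FPKM in VC200 (SD, n = 3 each).

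Of 12 tested cytokinin genes, 1 was higher and 1 lower at an unadjusted p under 0.05, with a median of −0.23, where all tested genes had 7.98% higher and 2.18% lower. Without VC200C these were 1 and 3, with a median of −0.075, where all tested genes had 9.38% higher and 6.76% lower. The response regulator gene Gb_07568 is annotated as ARR2, and the study's text names it ARR3. It had 3.05, 3.15 and 6.62 FPKM in VC600, against 0.316, 2.09 and 0.122 FPKM in VC200. The LOG homolog Gb_08598, which releases active cytokinin, had 2.65, 13.7 and 2.78 FPKM in VC600 and 18.7, 17.82 and 6.75 FPKM in VC200. Gb_00446 and Gb_19483, also in this list, had log2 fold changes of −2.40 and 1.04 with overlapping groups, and Gb_19483 had 0.44 without VC200C.

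Phosphate and nitrate genes had the lowest median of the 20 lists, −2.09, and −1.93 without VC200C. Of 8 listed genes, 5 passed the filter, all had a lower mean in VC600, and 4 had an unadjusted p under 0.05 with separated groups, where 2.18% of all tested genes were lower at that level and 3.18% separated downward. By DESeq2 4 were called, against 1.52% of all genes. Besides Gb_23836 and Gb_20888, these were Gb_23840, with 5.77, 10.7 and 11.9 FPKM in VC600, against 36.6, 31.2 and 22.0 FPKM in VC200, and SPX2 (Gb_22061, an SPX domain protein of a family that senses phosphate status), with 2.84, 0.501 and 2.66 FPKM in VC600, against 12.1, 7.49 and 13.6 FPKM in VC200. VC20 trees ranged from 6.37 to 28.9 FPKM in Gb_23840 and from 2.91 to 13.7 FPKM in Gb_22061, overlapping VC200 in both. The nitrate transporter accessory protein NRT3.1 (Gb_07111) had 74.2, 129 and 92.5 FPKM in VC600 and 101, 124 and 196 FPKM in VC200, which overlap. Of the 8 genes, 4 came from the study's list for this pair of groups, so this direction too is not independent evidence.

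Heat shock proteins, chaperones that bind unfolded proteins, had a median of −0.71, in a list with 18 of 24 members from the study's lists. Of 22 tested genes, 0 were higher and 6 lower at an unadjusted p under 0.05, and without VC200C these were 1 and 4, with a median of −0.37. At that level 7.98% of all tested genes were higher and 2.18% lower, and 9.38% and 6.76% without VC200C. The small heat shock protein gene Gb_29828 had 2.65, 2.40 and 3.18 FPKM in VC600, against 57.6, 69.99 and 96.6 FPKM in VC200. The difference was −4.31 on the log2 scale (SE 0.83, adjusted p = 0.199), and VC20 trees were mixed, with 3.39 FPKM in VC20A and 51.2 and 50.7 FPKM in the other two. The DnaJ protein gene Gb_05958 had 3.72, 0.104 and 4.19 FPKM in VC600, against 18.1, 17.7 and 28.5 FPKM in VC200. The most abundant member, Gb_40446, had 1,714, 1,722 and 1,190 FPKM in VC600 and 1,967, 2,240 and 4,036 FPKM in VC200. Summed over the list, VC600A was the highest VC600 tree (6,138 FPKM, with 2,863 and 3,410 in the others) and VC200C the highest VC200 tree (10,209 FPKM, with 4,447 and 4,721 in the others) as well as of all 9. Gb_13364 and Gb_22597 stood at the upper end of the list, with log2 fold changes of 1.33 and 0.69 and overlapping groups, and Gb_22597 had 0.087 without VC200C.

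Lists of defense-related families had members on both sides, and a defense role of single members was not tested. Among 21 tested chitinases, glucanases and thaumatins, in a list with 21 of 22 members from the study's lists, 7 were higher and 2 lower at an unadjusted p under 0.05 (median 0.67), and 8 and 3 without VC200C (median 0.56). The shares of all tested genes at that level were 7.98% higher and 2.18% lower, and 9.38% and 6.76% without VC200C. The thaumatin-like gene Novel01670 had 3.47, 1.49 and 3.28 FPKM in VC600 and was listed at 0 in all VC200 trees, at least 48.3-fold higher against the floor of 3 fragments. The chitinase-like gene Gb_10203, a homolog of *Arabidopsis* CTL1, had 25.5, 33.7 and 13.2 FPKM in VC600 and 4.04, 16.3 and 0.198 FPKM in VC200. Its log2 fold change was 2.32, or 1.33 without VC200C. A chitinase of another family, Gb_04932, had 1.07, 0.639 and 4.91 FPKM in VC600, against 27.5, 12.2 and 19.3 FPKM in VC200, and Gb_14114 had overlapping groups with a log2 fold change of −1.55.

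NBS-LRR genes encode intracellular receptors of pathogen effectors. Of 128 tested, 9 were higher and 11 lower at an unadjusted p under 0.05, with a median of −0.04. Without VC200C these were 13 and 20, where 9.38% of tested genes were higher and 6.76% lower at that level. Gb_14274 (TAO1 homolog, overlapping another gene) had 3.67, 5.65 and 8.90 FPKM in VC600, against 1.11, 1.12 and 2.02 FPKM in VC200. Gb_22273 was higher in VC600, at 14.2, 8.49 and 4.69 FPKM, than in all VC200 and VC20 trees, which had at most 3.22 and 3.101 FPKM. Gb_28150 had 1.02, 1.48 and 1.45 FPKM in VC600, against 5.36, 4.72 and 12.02 FPKM in VC200, and Gb_18066 was high in VC200C only, at 65.9 FPKM, with a log2 fold change of −1.56 (−0.33 without it). Of 92 other tested LRR genes, 7 were higher and 7 lower at an unadjusted p under 0.05 (7.98% and 2.18% of all tested genes were), with a median of 0.16. Without VC200C these were 9 and 14, with a median of −0.01, and the median was 0.006 after quantile normalization. The receptor kinase homolog Gb_11073 averaged 81.2 ± 9.18 FPKM in VC600 and 31.9 ± 11.5 FPKM in VC200, the FLS2 gene Gb_34042 (the flagellin receptor in *Arabidopsis*) averaged 1.67 ± 0.945 FPKM in VC600 and 0.354 ± 0.312 FPKM in VC200 (SD, n = 3 each), and Novel00562 and Gb_34148 had log2 fold changes of −1.91 and −1.72 (−0.945 in Gb_34148 without VC200C, which had 18.9 FPKM against 2.39 and 3.70 FPKM in VC200A and VC200B). Autophagy genes serve the degradation and recycling of cell contents. Of 35 tested, 1 was higher and 0 were lower at an unadjusted p under 0.05, the median was −0.015 (−0.097 without VC200C, with 1 higher and 1 lower), and single genes ranged from −0.40 to 0.61. NBR1 is a receptor that brings cargo to autophagosomes, and the fold change of its genes changed sign without VC200C in Gb_08609 and without VC600A in Gb_14923.

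The level of young trees was then set beside both old groups. In the 725 genes with an unadjusted p under 0.05 and an absolute log2 fold change ≥ 1 (3.31% of tested genes), the VC20 mean was nearer the VC600 mean in 589 genes, or 81.2%. Over all tested genes it was nearer VC600 in 67.1%, and in 65.1% after quantile normalization. For the 503 genes higher in VC600 (2.29%) the share was 84.1%, and for the 222 lower genes (1.01%) it was 74.8%. Without VC200C it was 77.3% of 581 higher and 79.8% of 504 lower genes. The share over all tested genes was not computed without VC200C, so these values have no matching background. With a limma weight for each library, the share among the genes then selected was 68.6%, close to the 67.1% of all tested genes without weights. Since both differences use the same VC200 and VC600 libraries, these shares describe where VC20 lies and are not a separate test.

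Among the 503 higher genes, the VC20 mean was above the VC600 mean in 256, between the old groups in 228 and below VC200 in 19. Among the 222 lower genes it was below VC600 in 63, between in 147 and above VC200 in 12. The 95% interval of the VC600 vs. VC20 difference included 0 in 612 of the 725 genes (84.4%), against 93.2% of all tested genes, so in 113 genes VC600 departed from VC20 by more than its interval. Gb_01664, Gb_16430 and Gb_13977 belong to those below VC20, and Gb_32944, Gb_20888 and Gb_25238 to those above it. An interval that includes 0 does not show that VC600 equals VC20. Of the 21,924 tested genes, 286 had all VC200 trees below all 6 VC600 and VC20 trees, and 125 had them above. These counts require a log2 difference of at least 1 from VC600.

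**Figure D5:**
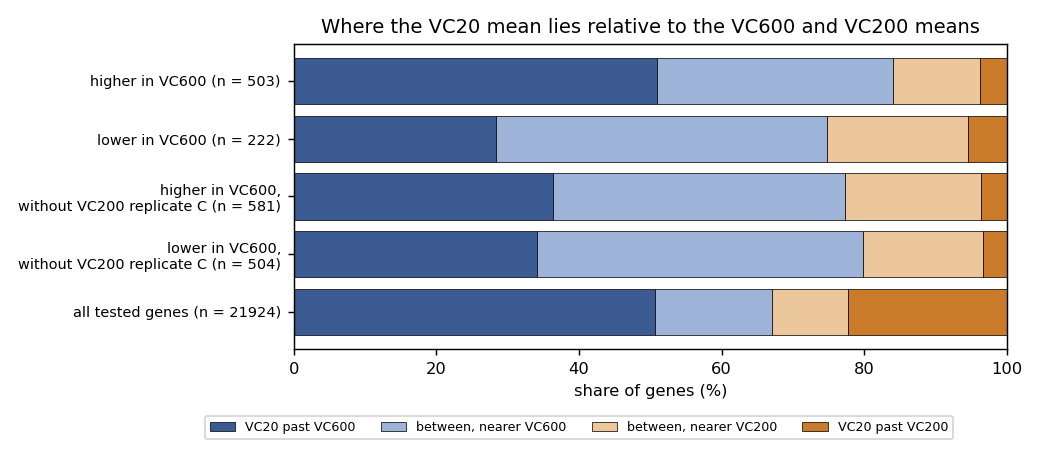
Share of genes (x axis, %) by where the VC20 mean of log2(FPKM + 1) lies relative to the VC600 and VC200 means, for genes with an unadjusted p under 0.05 and an absolute log2 fold change ≥ 1 (rows, by direction, with and without VC200 replicate C) and for all 21,924 tested genes. The part in which VC20 is nearer VC600 is 84.1% of higher, 74.8% of lower and 67.1% of all genes. The row of all tested genes includes VC200C, so it is no matching background for the rows without it.

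Among features that the selection did not use were the kind of gene model and its length. Genes that the study assembled outside the reference models were 15.3% of the 503 higher and 11.7% of the 222 lower genes, against 7.04% of all tested genes. Median gene length was 949 bases in higher, 1,094 bases in lower and 1,140 bases in all tested genes. The level did enter the selection, through the filter and the fold change, and is given as a description. The median level over the 9 libraries was 7.20 FPKM in higher, 9.52 FPKM in lower and 10.6 FPKM in all tested genes. In 14 tested genes all VC200 trees were listed at 0 and all VC600 trees above 0, and in 4 genes the reverse held.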

How the data were processed

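The authors deposited FPKM values per gene for 9 poly(A) RNA-seq libraries, and the submitters' processing notes name TopHat2 2.0.12 and Cufflinks 2.1.1. The study's methods instead name HISAT for alignment, and which was used for the deposited values, and so how reads shared by near-identical genes were counted, was not resolved. The deposited small RNA files hold counts per miRNA, which were scaled to library size (CPM). Genes that reached 1 FPKM in 3 or more of the 9 libraries were tested as log2(FPKM + 1) in limma 3.58.1 (R 4.3.3; empirical Bayes with a mean trend) with 1 mean for each age group, and p values were adjusted by Benjamini-Hochberg. A call required an adjusted p under 0.05 and a log2 fold change of at least 1. Such fold changes understate changes of genes of low level. Whole fragments were recovered from FPKM and gene length for 97.4% of values (within 0.02 of a whole number) and were tested in edgeR 4.0.16 (quasi-likelihood, TMM) and DESeq2 1.42.0. Alternatives were a pseudocount of 0.1, quantile normalization, a fit of the 2 groups alone, no filter, a weight for each library, a replicate block, no minimum fold change and leaving out each library. List counts without VC200C and the VC20 position with library weights were alternatives chosen after seeing the data. Exact 95% intervals of fragment ratios and floors of 3 fragments cover counting error only. PCR duplicates were not marked by molecular identifiers, so fragments may not be independent molecules. Each library was a separate tree.

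The genes named were those called, the 15 higher and 15 lower genes of smallest p with separated groups and a log2 fold change of at least 1, those called without VC200C, all laccases, and up to 2 genes at each end of every other list. Genes outside this rule (Gb_07111, Gb_22061, Gb_23840 and Gb_40446) were chosen after their values were seen. Members, lists and this rule were chosen with earlier results of these data known. No column of per-sample values was left unmapped (0 columns). Gene function came from the study's supplementary annotation. Scripts were tested on simulated data. With 3 trees against 3, an exact permutation test of a single gene cannot give p below 0.1, so none was used.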

Additional observations from a re-analysis of the deposited data

How the results depend on the processing

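The count of 1 called gene was also 1 with quantile normalization, with edgeR and with no minimum fold change. It was 5 with a pseudocount of 0.1, 2 with no filter, 4 with only the 2 groups compared, 323 with DESeq2 and 383 with limma array weights. Leaving out each library in turn gave 0 to 16 called genes, with 0 without VC200A, VC600A or VC600B, 2 without VC20A, 4 without VC20B and 16 without VC200C. Genes at an unadjusted p under 0.05 numbered 5,551 with array weights and 1,548 to 3,538 when single libraries were left out, the highest without VC200C. The share of the selected genes with VC20 nearer VC600 was 68.6% with array weights and 71.7 to 89.0% when single libraries were left out. With the letters A, B and C as a replicate block, 0 genes were called and 2,138 had an unadjusted p under 0.05, and Gb_20591 had an adjusted p of 0.066. The labels give no pairing of trees by letter, and each library was a separate tree. Same-letter correlations of deviations from the group means were −0.245 to 0.277, and different-letter ones −0.303 to 0.271. Among named genes, Gb_08609 changed sign to −0.17 with array weights and to −0.26 without VC200C. Gb_14923 changed to −0.028 without VC600A and Gb_28387 to 0.046 without VC600B. Leaving out single libraries gave −0.26 to 1.06 in Gb_08609, −0.028 to 0.88 in Gb_14923 and −1.46 to 0.046 in Gb_28387. The cause was not tested. Of all values of named genes under the alternatives, 1,549 kept direction and side of the threshold, 133 passed it in addition and 6 no longer passed it. Of list medians, 297 moved little and 43 moved. Depth limits genes near 0, where 3 trees in a group leave fold changes to depend on the added constant.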
